A study of Mus musculus with 12 samples.

Results

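Matrix metalloproteinases (MMPs) and their inhibitors, the tissue inhibitors of metalloproteinases (TIMPs), were measured by bulk RNA-seq in tumor cells derived from MC38, a colon cancer line of the mouse. The set holds 9 genes named in advance by symbol, 6 proteases (Mmp2, Mmp3, Mmp9, Mmp10, Mmp13 and Mmp14) and 3 inhibitors (Timp1, Timp2 and Timp3), of the 33219 features in the count table. MC38 cells were wild type (WT) or carried A159V, a homozygous knock-in in the endogenous Rac1 gene made by CRISPR-Cas9, and were grown as tumors under the skin of C57BL/6 mice, female or male and 6 to 8 weeks old. The mice received anti-PD1, an antibody that blocks a T cell checkpoint receptor, or IgG isotype control into the peritoneum every 3 days from day 3. Tumors were taken on day 13, minced and digested with collagenase. A magnetic kit that depletes other cells was used to isolate the tumor cells, and polyadenylated RNA was sequenced. The 4 groups of n = 3 mice are named WT IgG, A159V IgG, WT anti-PD1 and A159V anti-PD1. A159V cells were a clonal line, clone 9 unless the study specified otherwise, so a difference between the genotypes cannot be told apart from a difference between clones.

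MMPs are zinc-dependent endopeptidases that are made as inactive zymogens and cleave collagens, other matrix proteins and many secreted or cell surface proteins. TIMPs bind the active site of MMPs, and the balance between both families sets how much matrix is degraded. Mmp2 and Mmp9 encode the gelatinases, Mmp14 a membrane-anchored collagenase that activates pro-MMP2 at the cell surface with TIMP2 as a bridge, and Mmp3, Mmp10 and Mmp13 the secreted stromelysins and a collagenase. In colon tumors these enzymes come from cancer cells as well as from fibroblasts, neutrophils and macrophages. Gene counts measure RNA and carry no information on zymogen activation or protease activity.

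Total counts ranged from 14053582 to 21949942 per sample. Values are counts-per-million (CPM) scaled by edgeR's TMM method, and 3 counts, taken as the smallest detectable amount, corresponded to 0.144 to 0.201 CPM, a limit that covers counting error only. The labels call the cells an adenocarcinoma, but none of 8 epithelial markers, among them Epcam, Krt8 and Cdh1, exceeded 1.81 CPM in any sample. Of 6 fibroblast markers, all were detected in every sample, and their summed level was 502 to 793 CPM in WT IgG, 705 to 1503 in WT anti-PD1, 220 to 278 in A159V IgG and 192 to 259 in A159V anti-PD1. Col3a1 and Dcn together held most of this sum in every sample. Ly6g, the defining neutrophil marker, had 0 counts in all 12 samples, and the 6 neutrophil markers together reached at most 2.61 CPM. Among 6 macrophage markers, Cd68 held most of the sum, and none of the other markers exceeded 0.984 CPM in a sample. The summed level of 6 leukocyte markers was 5.20 to 7.65 CPM in WT IgG, 17.4 to 28.6 in WT anti-PD1, 6.11 to 6.93 in A159V IgG and 5.67 to 7.45 in A159V anti-PD1. Cd79a, a B cell marker at 3.22 to 7.01 CPM in every sample, held most of this sum outside WT anti-PD1. Ptprc, the pan-leukocyte marker CD45, was at 0.184 to 2.81 CPM in WT IgG and 7.46 to 14.2 in WT anti-PD1, against 0 to 0.213 in A159V IgG and 0.0532 to 0.278 in A159V anti-PD1. In bulk samples, fewer cells of a type and less RNA per cell cannot be told apart.

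Relative to exon length, Timp1 was the most abundant of the 9 genes in every group. In WT IgG it stood at 150 ± 54.4 RPKM (CPM divided by exon length in kilobases, SD, n = 3), followed by Timp2 at 56.3 ± 2.26, Mmp14 at 36.2 ± 6.37, Mmp9 at 13.2 ± 9.04 and Mmp2 at 9.97 ± 1.61 RPKM. Mmp9 and Mmp2 overlapped between samples, and the genes above them did not overlap with their neighbors in this order. Mmp3 (1.33 ± 1.74 RPKM) and Timp3 (0.674 ± 0.633 RPKM) were lower and overlapped with each other, and Mmp13 and Mmp10 lay at or below 0.178 RPKM in each WT IgG sample. In A159V IgG, Timp1 stood at 153 ± 4.40 RPKM and Mmp14, at 35.0 ± 3.43, was above Timp2, at 27.3 ± 0.170 RPKM. Timp3 was the lowest gene in both A159V groups, with 0.00826 ± 0.00718 RPKM under IgG and 0.0293 ± 0.0242 RPKM under anti-PD1. The 4 genes with the lowest levels in A159V IgG, Mmp13, Mmp10, Mmp3 and Timp3, each overlapped with the next in order.

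The shares within the 3 TIMP genes and within the 6 MMP genes of the set differed between the genotypes. Mmp11, described further on, is not among these 6, although its CPM exceeded those of Mmp2 and Mmp9 in every sample. Timp1 made up 71.3% ± 6.92 (SD, n = 3) of the summed RPKM of the 3 TIMP genes in WT IgG and 59.7% ± 3.45 in WT anti-PD1, against 84.9% ± 0.309 in A159V IgG and 85.6% ± 1.36 under anti-PD1 in A159V. Mmp14 made up 60.4% ± 7.37 of the summed RPKM of the 6 MMP genes in WT IgG and 64.4% ± 7.69 in WT anti-PD1, against 87.4% ± 0.942 in A159V IgG and 84.6% ± 0.545 under anti-PD1 in A159V. No A159V sample overlapped with a WT sample in either share. The summed level of the 6 MMP genes was 50.8 to 79.0 RPKM in WT IgG and 35.7 to 43.0 RPKM in A159V IgG. That of the 3 TIMP genes overlapped, at 173 to 270 and 177 to 186 RPKM.

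The comparison of A159V IgG with WT IgG asks how the mutation alters tumor cells without checkpoint blockade. Mmp2, Mmp3, Mmp9, Timp2 and Timp3 were lower in A159V IgG, while Mmp13, Mmp14 and Timp1 did not pass the test. The test was the quasi-likelihood test of edgeR, with all 12 samples in 1 fit and p adjusted over 14340 genes by the Benjamini-Hochberg method. A gene was called when its adjusted p was under 0.05 and its log2 fold change exceeded 0.3 in size. Of the 9 genes, 8 had enough counts to be tested and 5 were called, all lower, beside 28.0% of all genes tested that were called and 12.4% that were called lower (1779 genes, 2052 under RLE scaling, 2313 under upper-quartile scaling). The median log2 fold change of the 8 genes was −1.53, against 0.02 over all genes tested. In 4 of the 9 genes every A159V IgG sample lay below every WT IgG sample, beside 16.0% of all genes tested, and the other 5 genes overlapped.

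Under anti-PD1, 5 of the 8 tested genes were again called lower in A159V, now Mmp2, Mmp9, Mmp14, Timp2 and Timp3, beside 21.4% of all genes called and 10.2% called lower (1462 genes, 1672 under RLE scaling, 1788 under upper-quartile scaling). The median log2 fold change of the 8 genes was −1.03, against 0.06 over all genes. In 5 of the 9 genes the A159V anti-PD1 samples all lay below the WT anti-PD1 samples, beside 23.5% of all genes, and in 1, Timp1, they all lay above, beside 32.6%. The direction of every called gene of the set was the same with TMM, RLE and upper-quartile scaling in both comparisons. Some markers of other cell types were also called between the genotypes, not all in the same direction. Of the 6 fibroblast markers, 4 were called lower in A159V in each comparison and none higher, with Col3a1 at a log2 fold change of −2.66 under IgG and −2.94 under anti-PD1. Pdgfra was called in neither (0.62 under IgG, adjusted p = 0.113, and −0.34 under anti-PD1, adjusted p = 0.404). Of 4 tested leukocyte markers, Ptprc and Nkg7 were called lower in A159V under IgG, and Ptprc, Cd8a and Nkg7 under anti-PD1, all 3 of which were near or under the limit of 3 counts in A159V samples. Cd79a was called in neither comparison (0.41 under IgG, adjusted p = 0.232, and 0.37 under anti-PD1, adjusted p = 0.306). The leukocyte calls under anti-PD1 held with each sample left out, whereas under IgG Ptprc was called in 4 and Nkg7 in 3 of those 6 fits. Cd68 was called higher in A159V under IgG (0.81, adjusted p = 0.00826) but not under anti-PD1 (0.09, adjusted p = 0.761). C1qb, the other macrophage marker tested, was called in neither (−0.97 and −1.46, adjusted p = 0.135 and 0.0577). Of 5 endothelial markers 2 were tested, and both, Pecam1 and Cdh5, were called lower under anti-PD1 (−1.08 and −0.74, adjusted p = 0.0401 and 0.0355). With a sample left out, Pecam1 was called in 1 of 6 fits and Cdh5 in 0 of 6. Which cells expressed these markers, and the part of other cells in the MMP and TIMP differences, were not tested.

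**Figure D1:**
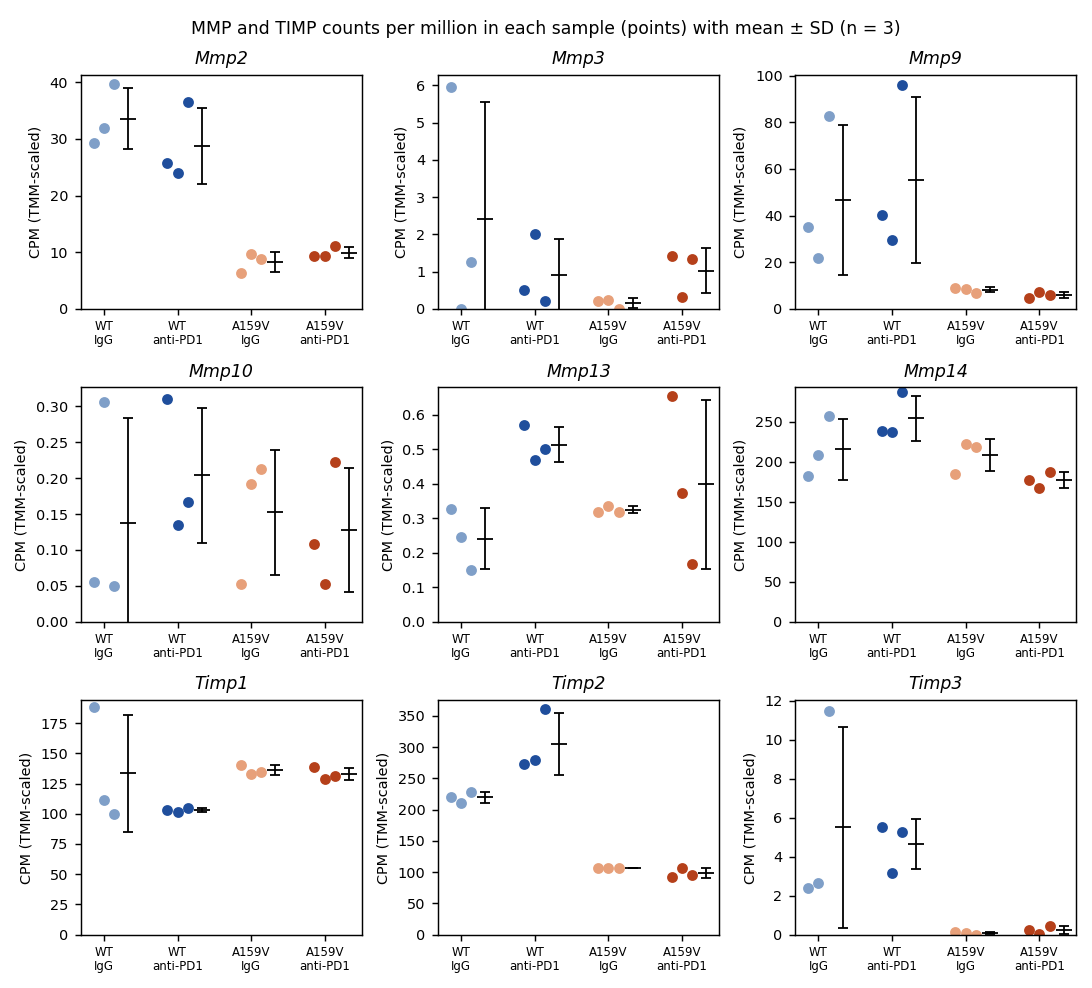
TMM-scaled CPM of the 9 genes in each of the 12 samples, with 1 panel per gene, the 4 groups on the horizontal axis and CPM on the vertical axis. Points are samples, the wide tick and bar to their right are the mean and SD (n = 3), and bars that reach below 0 are drawn to 0. Mmp2, Mmp9, Timp2 and Timp3 show no overlap between WT and A159V samples, while Mmp10 and Mmp13 stay under 1 CPM throughout.

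Mmp2 (ENSMUSG00000031740, mm10 chromosome 8, 92827291 to 92853420) encodes gelatinase A, which degrades denatured and basement membrane collagen. It was expressed at 29.2, 31.9 and 39.7 CPM in WT IgG, at 25.8, 23.9 and 36.5 CPM in WT anti-PD1, at 6.29, 9.75 and 8.72 CPM in A159V IgG and at 9.37, 9.30 and 11.1 CPM in A159V anti-PD1. All 6 A159V samples lay below all 6 WT samples, and the treatments overlapped within each genotype. The log2 fold change of A159V against WT was −2.02 under IgG (standard error, SE, 0.21, adjusted p = 7.99e-05) and −1.54 under anti-PD1 (SE 0.21, adjusted p = 0.000356). Leaving out each sample in turn gave −2.20 to −1.86 under IgG and −1.65 to −1.33 under anti-PD1, and the gene was called each time.

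Mmp9 (ENSMUSG00000017737, chromosome 2, 164940780 to 164955850) encodes gelatinase B, which in many tumors is supplied by neutrophils. Its level was 35.1, 22.0 and 82.8 CPM in WT IgG and 40.1, 29.6 and 95.9 CPM in WT anti-PD1. In A159V it was 8.94, 8.69 and 6.96 CPM under IgG and 4.63, 7.23 and 6.06 CPM under anti-PD1. The WT samples spread over a wide range, with WT IgG replicate 4 and WT anti-PD1 replicate 3 highest, and still none came down to an A159V sample. The log2 fold change was −2.51 under IgG (SE 0.49, adjusted p = 0.00297) and −3.21 under anti-PD1 (SE 0.50, adjusted p = 0.000954). Without WT IgG replicate 4, a log2 fold change of −1.80 was still called (adjusted p = 0.0135).

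Mmp14 (ENSMUSG00000000957, chromosome 14, 54431612 to 54445364) encodes the membrane-type protease that activates pro-MMP2. It was expressed at 182, 208 and 257 CPM in WT IgG, 239, 238 and 287 CPM in WT anti-PD1, 185, 222 and 219 CPM in A159V IgG and 177, 167 and 187 CPM in A159V anti-PD1. Under IgG the genotypes overlapped, with a log2 fold change of −0.05 (SE 0.15, adjusted p = 0.837). Under anti-PD1 the A159V samples lay below the WT samples, with a log2 fold change of −0.52 (SE 0.15, adjusted p = 0.0233). The call did not hold without WT anti-PD1 replicate 3 (−0.43, adjusted p = 0.114) nor without each of the 3 A159V anti-PD1 samples (−0.56 to −0.48, adjusted p = 0.0593 to 0.0812).

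Timp2 (ENSMUSG00000017466, chromosome 11, 118301069 to 118355740, minus strand) encodes the inhibitor that also links pro-MMP2 to MMP14. Its span overlaps that of Cep295nl, a counted gene on the same strand, without sharing exonic bases. Its level was 221, 210 and 228 CPM in WT IgG and 272, 280 and 361 CPM in WT anti-PD1. In A159V it was 107, 106 and 107 CPM under IgG and 92.1, 107 and 95.7 CPM under anti-PD1. A159V samples differed from each other by less than any WT sample differed from them, and the WT anti-PD1 samples were the highest of all. The log2 fold change between the genotypes was −1.04 under IgG (SE 0.13, adjusted p = 0.000221) and −1.63 under anti-PD1 (SE 0.13, adjusted p = 1.42e-05). Among the 8 tested genes, Timp2 had the smallest SE in both comparisons.

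Timp3 (ENSMUSG00000020044, chromosome 10, 86300372 to 86349506) encodes the TIMP that binds to the extracellular matrix and that also inhibits ADAM proteases. It had 44, 43 and 228 counts in WT IgG and 107, 47 and 94 in WT anti-PD1, against 2, 2 and 0 counts in A159V IgG and 4, 1 and 8 in A159V anti-PD1. The A159V IgG samples were all at or under the limit of 3 counts, and no A159V sample reached a WT sample. The ratio of depth-scaled counts summed over the group, WT to A159V, was 84.5 under IgG (95% interval 32.7 to 312, from 315 and 4 counts) and 20.1 under anti-PD1 (11.6 to 38.4, from 248 and 13 counts), and these exact intervals cover counting error only. The fitted log2 fold changes were −6.20 (SE 0.88, adjusted p = 0.000489) and −4.26 (SE 0.75, adjusted p = 0.00183), values that depend on the prior count at such levels. WT IgG replicate 4 held 228 of the 315 counts in WT IgG, and without it the log2 fold change under IgG was −5.07 (adjusted p = 0.000595). Leaving out each sample in turn gave −6.64 to −5.07 under IgG and −5.04 to −3.79 under anti-PD1, called each time. Exons of Timp3 share 1733 bases with Syn3 on the opposite strand, and the strand setting of the counting is not given in the sources used here, so reads of both genes cannot be told apart there.

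Timp1 (ENSMUSG00000001131, chromosome X, 20870166 to 20874735) encodes the inhibitor that binds pro-MMP9, and lies within the span of Syn1 on the opposite strand without sharing exonic bases. It was expressed at 189, 111 and 100 CPM in WT IgG, 103, 101 and 105 CPM in WT anti-PD1, 140, 133 and 135 CPM in A159V IgG and 139, 129 and 131 CPM in A159V anti-PD1. WT IgG replicate 1 lay above all other samples and the remaining WT samples lay below all A159V samples. The log2 fold change was 0.03 under IgG (SE 0.19, adjusted p = 0.922), a value whose sign turned with the scaling (−0.055 for RLE size factors, −0.12 for upper-quartile normalization). Under anti-PD1 it was 0.37 (SE 0.19, adjusted p = 0.179) and did not pass.

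Mmp3 (ENSMUSG00000043613, chromosome 9, 7445822 to 7455975), which encodes stromelysin-1, had 109, 0 and 25 counts in WT IgG, 10, 30 and 4 in WT anti-PD1, 4, 5 and 0 in A159V IgG and 26, 6 and 24 in A159V anti-PD1. Samples of WT IgG spread from 0 to 5.96 CPM, so the groups overlapped. The log2 fold change was −3.92 under IgG (SE 1.32, adjusted p = 0.0414), and without WT IgG replicate 1 it was −2.14 (adjusted p = 0.260). The call was also lost without each of the A159V IgG samples (adjusted p = 0.0834 to 0.0931). Under anti-PD1 the log2 fold change was 0.20 (SE 1.12, adjusted p = 0.914), so that the call under IgG was not shared by the anti-PD1 comparison, and the difference between both is given with the interaction. Mmp3 and Mmp10 are close paralogs, and how the counting treated reads that match both is not given in the sources used here.

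Mmp10 (ENSMUSG00000047562, chromosome 9, 7502352 to 7510240), which encodes stromelysin-2, had 1 to 6 counts in every sample and was not tested. Mmp13 (ENSMUSG00000050578, chromosome 9, 7272514 to 7283331), a collagenase that cleaves fibrillar collagen, had 3 to 12 counts in every sample. Its log2 fold change was 0.43 under IgG (SE 0.52, adjusted p = 0.567) and −0.37 under anti-PD1 (SE 0.46, adjusted p = 0.610). At this depth no genotype difference of either gene was detectable. Mmp13, Mmp3 and Mmp10 are neighbors on chromosome 9 and were the proteases of the set with the lowest levels.

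The proximal promoters of these 3 neighbors are shown because they share a match to TGANTCA, the core of the site for AP-1, the dimer of FOS and JUN proteins whose genes are described further on. They were read from RefSeq promoter sequences on GRCm38.p6, the plus strand, as the 130 bases before the transcription start, at chr9:7445692-7445821 for Mmp3, chr9:7502212-7502341 for Mmp10 and chr9:7272384-7272513 for Mmp13. Capitals mark the match.
Mmp3: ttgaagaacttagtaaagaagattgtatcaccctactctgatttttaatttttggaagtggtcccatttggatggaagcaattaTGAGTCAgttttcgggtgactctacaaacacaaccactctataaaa
Mmp10: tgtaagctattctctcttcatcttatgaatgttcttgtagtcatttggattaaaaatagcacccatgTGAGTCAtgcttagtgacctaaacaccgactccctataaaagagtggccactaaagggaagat
Mmp13: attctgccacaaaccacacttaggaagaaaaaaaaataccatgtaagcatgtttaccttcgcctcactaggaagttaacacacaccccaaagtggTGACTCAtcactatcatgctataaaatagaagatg
The match began 46 bases before the start in Mmp3, 63 in Mmp10 and 35 in Mmp13, and the pattern reads the same on both strands. Of the 9 genes, 7 were in the promoter table, which lacked Mmp2 and Mmp9. Within the 250 bases before the start Mmp14, Timp1, Timp2 and Timp3 held no match. Over all promoters in the table, 6.75% held TGANTCA in a window of the same length. TATAAA, the letters of a TATA box, was found in the same 3 promoters and in 12.4% of all, and AGGAAG, the core of sites for ETS factors, in Mmp3, Mmp13, Mmp14, Timp1 and Timp3 and in 29.5% of all, both searched on both strands and neither overlapping the first motif. A match describes letters in a window and says nothing of binding. Of the 3 genes with a TGANTCA match, Mmp10 was not tested and Mmp3 was called between the genotypes, under IgG alone, while Mmp13 was not called. A relation of the match to the genotype differences was not tested.

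**Figure D2:**
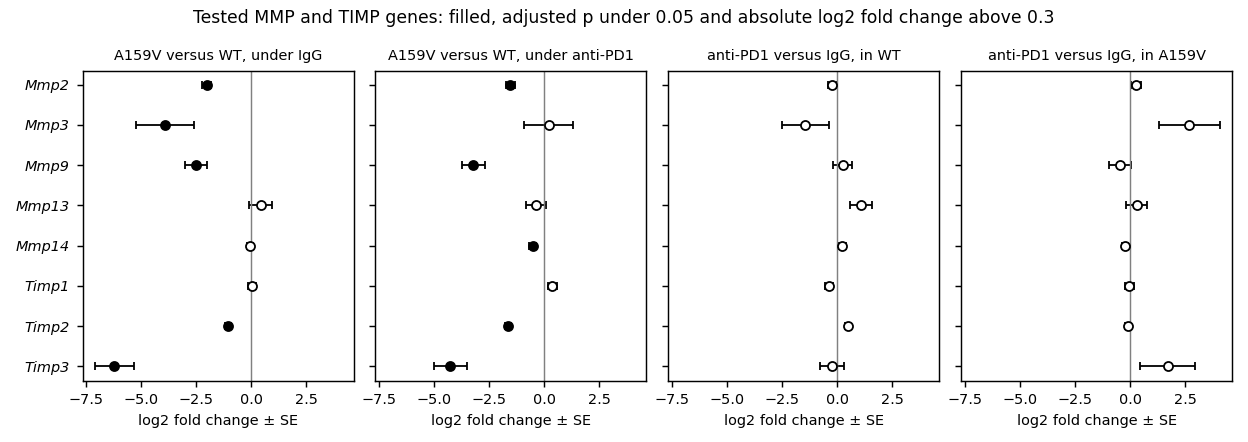
Log2 fold change of the 8 tested genes in each of the 4 pairwise comparisons, with 1 row per gene. Points are edgeR estimates, bars are ± 1 SE and filled points were called. The filled points lie left of 0 in both genotype comparisons, and no point is filled in either treatment comparison.

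Anti-PD1 was compared with IgG within WT to ask what checkpoint blockade changed in WT tumor cells. No gene of the set was called by edgeR, beside 0.628% of all genes tested, and 2 of the 8, Timp2 and Mmp13, had an unadjusted p under 0.05, beside 27.5% of all genes tested. The leukocyte markers Cd8a and Nkg7 were called higher with anti-PD1 (4.53 and 2.58, adjusted p = 0.0301 and 0.0492), each in 1 of the 6 fits with a sample left out, and their part in the values of the set was not tested. The mean of Timp2 was 220 ± 8.82 CPM in WT IgG (SD, n = 3) and 305 ± 49.3 CPM in WT anti-PD1, with all 3 anti-PD1 samples above all 3 IgG samples, as in 18.8% of all genes, and its log2 fold change was 0.47 (SE 0.13, adjusted p = 0.0763), which did not pass. DESeq2 called it (0.46, adjusted p = 0.0163), and so did edgeR without WT IgG replicate 4 (0.50, adjusted p = 0.0262). Mmp13 had 6, 4 and 3 counts in WT IgG and 11, 7 and 9 in WT anti-PD1, with a log2 fold change of 1.09 (SE 0.50, adjusted p = 0.179). Timp1 had a log2 fold change of −0.37 (SE 0.19, adjusted p = 0.214), and without WT IgG replicate 4 it was called (−0.54, adjusted p = 0.0404). The gelatinases and Timp3 overlapped between the treatments, with log2 fold changes of −0.22 for Mmp2, 0.24 for Mmp9 and −0.25 for Timp3 (adjusted p = 0.471, 0.751 and 0.795).

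Within A159V, anti-PD1 was compared with IgG in the same way. No gene of the set had an unadjusted p under 0.05, and edgeR called 0 of the 14340 genes (0.0%), with 521 (3.63%) at an unadjusted p under 0.05 and 2 called by DESeq2. Mmp3 was the only gene of the set whose groups did not overlap, with 0 to 0.240 CPM in A159V IgG and 0.319 to 1.42 CPM in A159V anti-PD1, a difference upward that 4.51% of all genes showed. Its log2 fold change was 2.68 (SE 1.39, adjusted p = 1). The log2 fold changes of Mmp2, Mmp9, Mmp14, Timp1 and Timp2 lay between −0.46 and 0.26.

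The difference between both anti-PD1 effects was tested as an interaction. In the model of the 4 group means, none of the 8 genes was called by edgeR or by DESeq2, beside 0.00697% of all genes tested by edgeR (1 gene), and 3 of the 8, Timp2, Mmp3 and Mmp14, had an unadjusted p under 0.05, beside 17.6% of all genes. The interaction was −0.59 on the log2 scale for Timp2 (SE 0.18, adjusted p = 0.206), −0.48 for Mmp14 (SE 0.21, adjusted p = 0.268) and 4.13 for Mmp3 (SE 1.75, adjusted p = 0.261).

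Other MMPs were mostly undetected or lower in A159V. Of 17 further Mmp genes, 6 had enough counts to be tested. Under IgG, 3 were called lower and 1 higher, with a median of −0.92 on the log2 scale, and under anti-PD1 5 were called lower and none higher, with a median of −2.22. Over all genes tested, 28.0% were called under IgG and 12.4% called lower, and under anti-PD1 21.4% and 10.2%. Leaving out each sample in turn gave 2 to 4 lower and 0 to 1 higher under IgG and 3 to 4 lower under anti-PD1. Mmp11, which encodes stromelysin-3, was the most abundant by CPM, at 122, 147 and 204 CPM in WT IgG, 211, 219 and 291 in WT anti-PD1, 49.4, 101 and 85.4 in A159V IgG and 39.6, 65.2 and 53.5 in A159V anti-PD1. No A159V sample overlapped with a WT sample, and its log2 fold changes were −1.01 (adjusted p = 0.0155) and −2.19 (adjusted p = 0.000251), the first not called without A159V IgG replicate 1 (−0.76, adjusted p = 0.0543). Mmp19 was lower in both comparisons (−1.83 and −2.92, adjusted p = 0.00650 and 0.000390), as was Mmp16, a membrane-type MMP related to Mmp14 (−3.31 and −5.43, adjusted p = 0.00771 and 0.00304). Mmp16 was at 0.0529 to 0.336 CPM in A159V IgG and 0 to 0.106 CPM in A159V anti-PD1, near or under the limit of 3 counts. The size of its fold changes therefore depends on the prior count. In WT IgG it was at 4.82 CPM in replicate 4, against 0.929 and 0.918 CPM in replicates 1 and 2. Both calls of Mmp16 held with each sample left out (−3.76 to −2.03 and −8.09 to −4.93). Mmp12, macrophage elastase, was below 1 CPM in every sample and was called in opposite directions, higher in A159V under IgG (2.61, adjusted p = 0.0184) and lower under anti-PD1 (−2.26, adjusted p = 0.0486), with an interaction of −4.87 that did not pass (SE 1.05, adjusted p = 0.135). The call of Mmp12 under IgG was lost without WT IgG replicate 2 (2.35, adjusted p = 0.0664), WT IgG replicate 4 (2.30, adjusted p = 0.0510) or A159V IgG replicate 2 (2.30, adjusted p = 0.0682), and the call under anti-PD1 was kept in 1 of 6 such fits (−2.93 to −1.72).

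Plasminogen activation, the serine protease cascade that cleaves pro-MMPs, was represented by 9 tested genes of 11. Under IgG, 6 were called lower and 2 higher in A159V, and under anti-PD1 4 were lower and 2 higher (1 higher with RLE size factors or upper-quartile normalization). Over all genes tested, 28.0% were called under IgG and 21.4% under anti-PD1. With each sample left out, 4 to 6 were lower and 2 higher under IgG, and 2 to 3 lower and 1 higher under anti-PD1. Plat, tissue plasminogen activator, was lower in both comparisons (−0.88 and −1.55, adjusted p = 0.00546 and 0.000243). The genes called higher in both were Plaur, the receptor of urokinase (0.74 and 0.62, adjusted p = 0.0130 and 0.0328), and Serpinb2, a urokinase inhibitor (2.30 and 2.37, adjusted p = 0.000923 and 0.000725). The call of Plaur under anti-PD1 held in 0 of 6 fits with a sample left out (0.49 to 0.71, adjusted p up to 0.151). Plau, urokinase itself, was called lower under IgG (−3.47, adjusted p = 0.0379) at a level of at most 1.48 CPM in any sample, and not without WT IgG replicate 1 (−2.03, adjusted p = 0.225) or A159V IgG replicates 1 or 2 (−2.95 and −2.90, adjusted p = 0.110 and 0.119).

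Of 9 other MMP inhibitors and cell surface partners, 7 were tested, with 1 lower and 1 higher under IgG and 2 lower under anti-PD1. These counts were near the shares of all genes called, 28.0% under IgG and 21.4% under anti-PD1. Lrp1, the endocytic receptor that clears MMPs and their complexes with TIMPs, was lower in A159V in both comparisons (−1.51 and −2.67, adjusted p = 0.0166 and 0.00104). Under IgG the call was lost with only the groups compared in the fit (−1.55, adjusted p = 0.0757) and in fits that left out WT IgG replicate 4 (−0.91, adjusted p = 0.0644), A159V IgG replicate 1 (−1.25, adjusted p = 0.0651) or A159V IgG replicate 2 (−1.31, adjusted p = 0.0682), whereas under anti-PD1 it held in every fit made. Under IgG Thbs2, a matricellular protein that clears gelatinases through that receptor, was called higher (0.73, adjusted p = 0.0398), but not with RLE size factors or upper-quartile normalization, and in 2 of 6 fits with a sample left out (0.37 to 0.96). Thbs1 was called lower under anti-PD1 (−2.43, adjusted p = 0.00250) and was the only gene of this list called for anti-PD1 within WT (2.28, adjusted p = 0.0410), a call kept in 1 of 6 fits with a sample left out (2.03 to 2.45). None of the other tested genes of the list was called in a genotype comparison.

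Among ADAM and ADAMTS proteases, relatives of MMPs that TIMP3 inhibits in part, 20 of 26 genes were tested, with 7 lower and 5 higher under IgG and 3 lower and 1 higher under anti-PD1. Over all genes tested, 28.0% were called under IgG and 21.4% under anti-PD1, and the count under anti-PD1 was near that share. RLE size factors gave 8 lower and 3 higher under IgG, and upper-quartile normalization gave 8 lower and 2 higher. With only the groups compared in the fit there were 3 lower and 1 higher under IgG and 7 lower and 1 higher under anti-PD1, and with each sample left out 4 to 10 lower and 1 to 5 higher under IgG and 2 lower and 0 to 1 higher under anti-PD1. Adamts7 and Adamts9 were lower in both comparisons (−1.19 and −1.85 for Adamts7, −1.46 and −1.73 for Adamts9), and were called in every fit that tested them. Adam15 was called higher in both (0.39 and 0.52), but the first was called in 0 of 6 fits with a sample left out (0.21 to 0.43) and the second in 5 of 6, not without WT anti-PD1 replicate 3 (0.46, adjusted p = 0.0683). Adam9 was higher under IgG, at 220 ± 36.0 against 110 ± 31.1 CPM (log2 fold change 1.00, adjusted p = 0.00276). Of 3 tested proprotein convertases, which remove the prodomain of membrane-type MMPs, 1, Pcsk5, was called lower under IgG (−3.66, adjusted p = 0.0430), at a mean under 1 CPM and in 1 of 6 fits with a sample left out (−4.82 to −2.87, adjusted p up to 0.151). Of 9 cysteine cathepsins and cystatins, 2 were called higher and 1 lower under IgG, and 2 higher and 0 lower under anti-PD1, beside 28.0% and 21.4% of all genes called. Ctsb was called higher in both comparisons (0.82 and 0.39, adjusted p = 0.000981 and 0.0475), the second not with RLE size factors or upper-quartile normalization and in 0 of 6 fits with a sample left out (0.35 to 0.43). Ctsc was called higher (0.70) and Ctsk lower (−3.02) under IgG, and Ctsz higher (0.58) under anti-PD1. These calls held in 2, 3 and 1 of 6 such fits.

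AP-1 and ETS factors, whose sites are known in many Mmp promoters, were all 12 tested. Under IgG, 4 were lower and 2 higher in A159V, beside 28.0% of all genes called, and under anti-PD1 5 were lower and 1 higher, beside 21.4%. Leaving out each sample in turn gave 2 to 5 lower and 1 to 4 higher under IgG, and 4 to 5 lower and 1 higher under anti-PD1. Fosb averaged 430 ± 105 CPM in A159V IgG against 1018 ± 125 CPM in WT IgG (log2 fold change −1.24, adjusted p = 0.00788), and Jun 1075 ± 359 against 2277 ± 232 CPM (−1.08, adjusted p = 0.00919). Fos was lower in both comparisons (−0.84 and −1.84, adjusted p = 0.0249 and 0.000409), the first not without A159V IgG replicate 1 (−0.67, adjusted p = 0.0980). Fosl2 was lower in A159V under anti-PD1 (−1.32, adjusted p = 0.000101) and was higher with anti-PD1 within WT (0.95, adjusted p = 0.0166), a call kept in 1 of 6 fits with a sample left out (0.80 to 1.06). Etv4, an ETS factor, was higher in both (0.50 and 0.69, adjusted p = 0.0132 and 0.00273), the first not with upper-quartile normalization (0.36, adjusted p = 0.0697) or without WT IgG replicate 2 (0.45, adjusted p = 0.0572). Other ETS factors were mixed, with Etv1 called lower under anti-PD1 alone (−1.09, adjusted p = 0.00151) and Ets2 called higher under IgG alone (0.69, adjusted p = 0.00283). The median log2 fold change of the list was −0.14 under IgG and −0.39 under anti-PD1. The effect of the tumor digestion before RNA extraction on the levels of these genes was not tested.

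**Figure D3:**
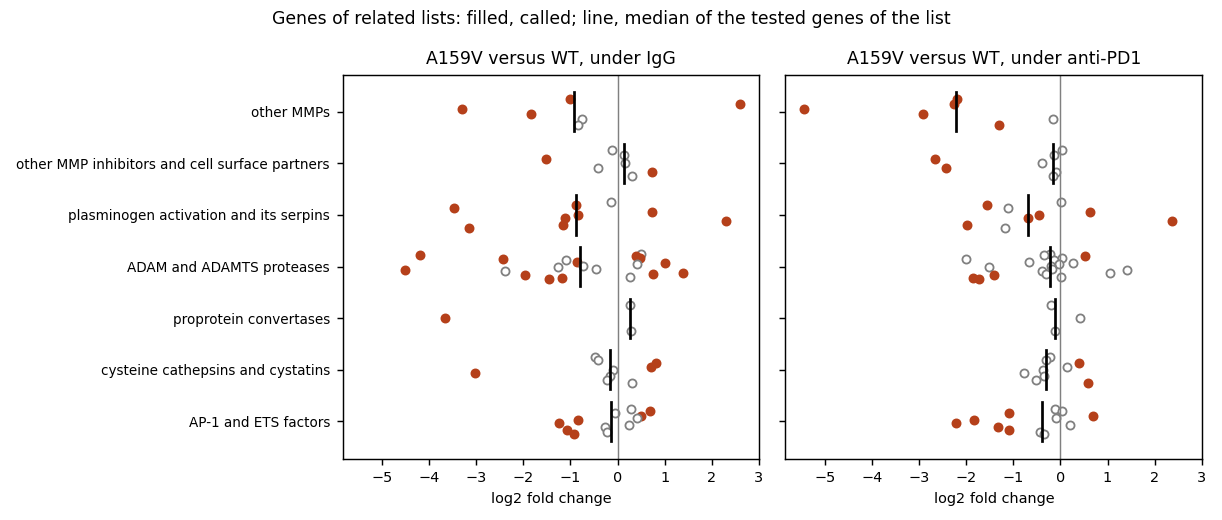
Log2 fold change of A159V against WT for the tested genes of 7 related lists, under IgG and under anti-PD1, with 1 row per list. Filled points were called, open points were not, and the black line is the median of the list. Other MMPs show the lowest median under both treatments, at −0.92 and −2.22.

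For each tested gene of the set, the genes with the most similar log2 CPM over the 12 samples were listed as a description. The samples fall into genotypes, and a Pearson's r over all 12 carries that split, so r is high for any gene that separates WT from A159V. Timp2 was most like Ramp2 (r = 0.993, n = 12) and Atp2c2 (r = 0.992), and Mmp9 was most like Pccb (r = 0.987) and Rhoj (r = 0.986). Mmp2 was most like Fam19a1 (r = 0.982), Zfp882 (r = 0.981) and Rgs5 (r = 0.979). The closest gene was 4930523C07Rik for Mmp13 (r = 0.821), Unc5b for Mmp14 (r = 0.977), Psmb2 for Timp1 (r = 0.970) and Zfp182 for Timp3 (r = 0.978). The closest genes to Mmp3 were Adamts2 (r = 0.921), Serpina3n (r = 0.914) and Col1a2 (r = 0.909).

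**Figure D4:**
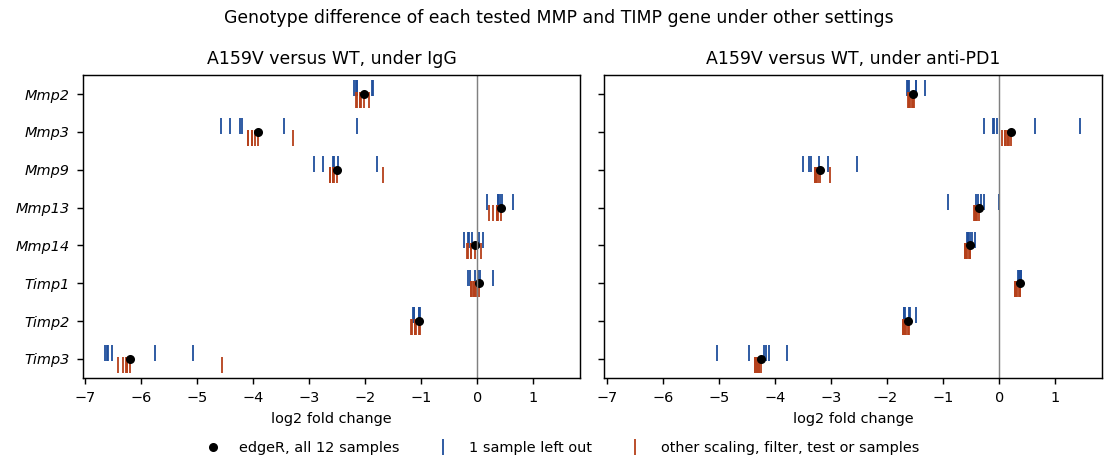
Log2 fold change of A159V against WT for the 8 tested genes under IgG and under anti-PD1, in the fit of all 12 samples (black points), with 1 sample left out (blue ticks) and with other scaling, filters, tests or samples (red ticks). Ticks of Mmp2, Mmp9, Timp2 and Timp3 stay left of 0 in both panels, while those of Timp1 under IgG lie on both sides of 0.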

How the data were processed

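Bulk RNA-seq of MC38 tumor cells from 12 mice in 4 groups was analyzed. The authors sequenced paired-end reads, aligned them to mm10 with STAR, converted alignments with Samtools, counted reads per gene with summarizeOverlaps and deposited raw counts in 1 table, without normalization. The counting mode, strand setting, annotation release and tool versions are not given in the sources used here. Gene symbols, positions and exon lengths came from GENCODE M21, which matched 32064 of 33217 Ensembl identifiers. Labels gave the group of every sample and named its column.

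The edgeR package (4.0.16, R 4.3.3) was run with filterByExpr for the 4 groups (14340 genes), TMM scaling and a quasi-likelihood model of the 4 group means, with 8 residual degrees of freedom. Genes were called at an adjusted p (Benjamini-Hochberg over all genes tested) under 0.05 where the log2 fold change exceeded 0.3 in size. RPKM values divide TMM-scaled CPM by exon length, so that levels of different genes can be set side by side. Intervals of count ratios were exact at 95%. Log2 CPM for correlations used a prior count of 2. The genes named were the 9 members, called genes of 7 related lists and 6 marker lists, and the 3 genes most correlated with each member. The members and lists were chosen with earlier results of these data known. Alternatives were RLE size factors, upper-quartile normalization, no filter or at least 10 counts in every sample, DESeq2 1.42.0, a fit of only the groups compared, no fold limit, the replicate number as a block and each sample left out. The tests were also run on simulated counts, with far fewer genes changed than were called here and as many raised as lowered. That run cannot show how the calls depend on the scaling. Replicates are different mice, and total counts of 14053582 to 21949942 per sample set the precision. Promoters came from RefSeq, and figures were drawn with matplotlib 3.10.9.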

Additional observations from a re-analysis of the deposited data

How the results depend on the processing

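Of the 5 members called lower in A159V IgG, 5 were called with RLE size factors, upper-quartile normalization, no filter, no fold limit and DESeq2, 4 with only the groups compared, and 3 when at least 10 counts were required in every sample, a filter that leaves out Mmp3 and Timp3. Leaving out each sample in turn gave 4 to 5 under IgG, 4 to 5 under anti-PD1, 0 to 2 for anti-PD1 within WT, 0 to 0 within A159V and 0 to 0 for the interaction. For anti-PD1 within WT, DESeq2 called 1. Timp1 under anti-PD1 was called with only the groups compared (0.31, adjusted p = 0.00484), and Mmp3 under IgG was not (adjusted p = 0.0939). Mmp2, Mmp9, Timp2 and Timp3 kept both genotype calls wherever they were tested.

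The replicate numbers belong to different mice, and samples of the same number did not deviate together (r of −0.178 to 0.205). A replicate block called 4 members under IgG, 5 under anti-PD1, 2 within WT (Timp1, −0.52, and Timp2, 0.43), 0 within A159V and 2 for the interaction (Timp2, −0.60, adjusted p = 0.0486, and Mmp14, −0.58, adjusted p = 0.0422, against 0.206 and 0.268 without the block). With the block the sign turned for Timp1 (−0.11) and Mmp14 (0.062) under IgG and for Timp3 within WT (0.65).

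The sign of Timp1 under IgG, 0.03, turned with RLE size factors (−0.055), upper-quartile normalization (−0.12), no filter (−0.031), at least 10 counts (−0.089), DESeq2 (−0.055) and only the groups compared (−0.046), and that of Timp1 within A159V turned with at least 10 counts (0.00369). With samples left out, log2 fold changes that crossed 0 ranged from −0.17 to 0.28 for Timp1 and −0.24 to 0.10 for Mmp14 under IgG, −0.27 to 1.44 for Mmp3 under anti-PD1, −2.67 to 0.42 for Mmp3, −0.42 to 0.95 for Mmp9 and −0.60 to 0.89 for Timp3 within WT, and −0.25 to 0.65 for Mmp13 within A159V. The causes were not tested.

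Counts over all genes moved more. Under IgG, 4010 genes were called, 1411 with only the groups compared and 2545 to 4677 with a sample left out, and under anti-PD1 3075, with 2014 at 10 counts in every sample, 5567 with only the groups compared, 5018 with the block and 1466 to 2121 with a sample left out. Within WT 90 were called, 771 without a filter, 25 at 10 counts, 1478 by DESeq2, 0 with only the groups compared, 4650 with the block, 1 without WT IgG replicate 1 and 3458 without WT IgG replicate 4. For the interaction, 37 were called without a filter, 295 by DESeq2, 2760 with the block and 0 to 1211 with a sample left out. Upper-quartile normalization moved the median over all genes under IgG from 0.02 to −0.12 on the log2 scale.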
